A study of Homo sapiens with 4 samples.

Results

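The 6 genes described here are regulators of signalling by transforming growth factor beta (TGF-beta), bone morphogenetic proteins (BMP) and Nodal: LDLRAD4, GREM1, CHRD, LEFTY2, ENG and TGFB1I1. They were taken by symbol from the list of genes that the authors selected as differing between the groups and deposited, which holds 742 symbols, so being listed there is how they were chosen and is not a result. The study silenced HMRHL, a long non-coding RNA encoded in an intron of PHKB, in K562 cells, a human cell line from chronic myelogenous leukaemia. RNA was taken 36 hours after transfection from 2 libraries with an siRNA against HMRHL and 2 libraries with a scrambled control siRNA. Both groups were K562 cells of the same passage range, and nothing in the labels tells whether replicate libraries were grown as separate cultures. The table gives 1 fold change per gene and no level, error, p-value or value per library, so the depth and the spread between replicates behind each value are unknown. The values were read as log2 and as HMRHL siRNA relative to scramble control, neither of which the table states. The identity of the cells and the loss of HMRHL could not be checked from these values.

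Ligands of the TGF-beta superfamily bring together type I and type II receptor kinases, which phosphorylate SMAD proteins that then act on genes in the nucleus. Secreted antagonists bind the ligands or their receptors, co-receptors present ligands to the receptor kinases, and intracellular proteins limit access to the SMADs. In the erythroid lineage, to which K562 cells are related, the ligand activin A is known as an erythroid differentiation factor.

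Of the 6 modulators, LDLRAD4 was given as higher in HMRHL siRNA cells than in scramble control cells and the other 5 as lower, in the authors' deposited table. Over all symbols in the authors' deposited table, 30.6% were higher and 69.4% were lower. The split of 6 genes chosen from that contrast is given as a description and nothing is read from it. Among the 5 lower modulators, the 3 secreted antagonists stood closest to 0, the co-receptor ENG was further away and the adaptor TGFB1I1 furthest. On the log2 scale the 6 values in the authors' deposited table ran from -3.30 for TGFB1I1 to 5.40 for LDLRAD4.

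**Figure D1:**
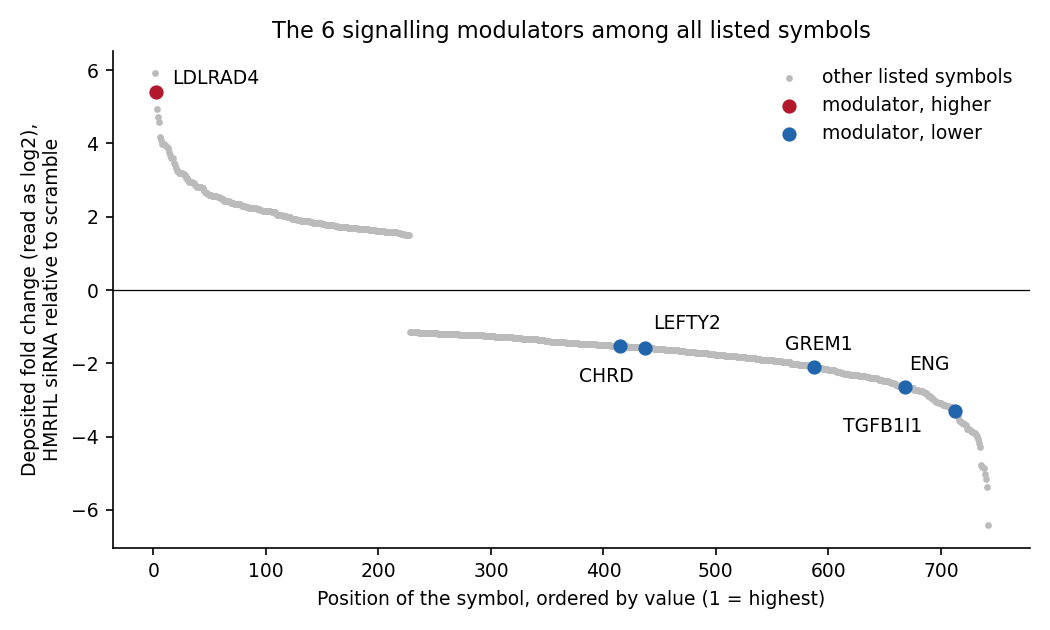
Deposited fold change (read as log2, HMRHL siRNA relative to scramble control) of all 742 listed symbols, ordered from the highest to the lowest on the horizontal axis, with the 6 modulators as large points. LDLRAD4 is at 5.40 near the top, and the 5 lower modulators lie between -1.53 and -3.30.

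LDLRAD4 is a membrane protein that inhibits TGF-beta signalling by binding the receptor-activated SMADs and keeping them from the receptor. It is annotated as ENSG00000168675.18 on chromosome 18 from 13217498 to 13652755 on the plus strand of GRCh38 (GENCODE release 29), a span of 435258 bases. The authors' deposited table gave it at 5.40 on the log2 scale, a 42.3-fold higher level in HMRHL siRNA cells than in scramble control cells if the value is log2. Read as a linear fold change, the same value would be 5.40-fold. It ranked 2 of 227 among the higher symbols, between POU2F2 at 5.91 and FAM83F at 4.95 in the authors' deposited table. LDLRAD4 has 19 annotated transcripts of any type that begin at 18 positions, against a median of 5 such positions over all annotated protein-coding genes. These are ends of annotated models, and whether transcription starts at each of them was not tested. The deposited value is per gene, so which of these transcripts it concerns is unknown. The RefSeq table holds 9 promoter windows of 300 bases for it (GRCh38.p14). The most upstream one, chr18:13217432-13217731 on the plus strand, is shown because LDLRAD4 is the member with the largest value, with the letters CAGAC, which SMAD proteins bind, in capitals.
LDLRAD4: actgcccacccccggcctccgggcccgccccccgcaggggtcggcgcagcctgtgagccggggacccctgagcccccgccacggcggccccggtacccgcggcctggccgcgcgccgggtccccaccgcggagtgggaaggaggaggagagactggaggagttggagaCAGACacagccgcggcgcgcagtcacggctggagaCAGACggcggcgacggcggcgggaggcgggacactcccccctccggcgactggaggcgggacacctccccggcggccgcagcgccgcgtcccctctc
The letters CAGAC occur there at 2 places. No listed gene lay among the 16 protein-coding genes within 1 Mb of LDLRAD4.

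GREM1, CHRD and LEFTY2 encode secreted antagonists. GREM1 (gremlin) and CHRD (chordin) bind BMP ligands outside the cell, and LEFTY2 is a divergent member of the superfamily that blocks Nodal at its receptor. The authors' deposited table gave GREM1 at -2.09, a 4.27-fold lower level in HMRHL siRNA cells than in scramble control cells if the value is log2. LEFTY2 stood at -1.57 (2.97-fold lower) and CHRD at -1.53 (2.89-fold lower) in the authors' deposited table. Among the 515 lower symbols GREM1 ranked 156, LEFTY2 306 and CHRD 328 by size, so LEFTY2 and CHRD were both smaller than the median lower symbol, whose size was 1.71. At a minimum of 4-fold on the log2 reading, GREM1 is kept and LEFTY2 and CHRD are not. This minimum is reached by 39.6% of all listed symbols and 34.2% of the lower ones. Read as linear, GREM1 would be 2.09-fold and is not kept either.

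The size at which genes entered the list differed by direction. In the authors' deposited table the negative value nearest to 0 was that of SLC17A7 at -1.15, and the smallest positive value was that of BBOX1 at 1.50. Next beyond these limits came TDRP at -1.15 and TSPAN9 at 1.51 in the authors' deposited table. No value between the limits is listed. CHRD at -1.53 and LEFTY2 at -1.57 in the authors' deposited table lie beyond the larger of these limits in size, and so do the other 4 modulators.

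GREM1 (ENSG00000166923.10) is on chromosome 15 from 32717974 to 32745107 on the plus strand and fills 2 rows of the table with an identical value. CHRD (ENSG00000090539.15) is on chromosome 3 from 184380073 to 184390736 on the plus strand. LEFTY2 (ENSG00000143768.12) lies on the minus strand of chromosome 1, from 225936598 to 225941489. The RefSeq promoter windows of GREM1 (the most upstream of 2, chr15:32717754-32718053, plus strand) and CHRD (chr3:184379804-184380103, plus strand) are shown because both are BMP antagonists given as lower and both hold the letters GGCGCC, a motif of the BMP-activated SMADs. Capitals mark CAGAC, its reverse complement GTCTG, and GGCGCC.
GREM1: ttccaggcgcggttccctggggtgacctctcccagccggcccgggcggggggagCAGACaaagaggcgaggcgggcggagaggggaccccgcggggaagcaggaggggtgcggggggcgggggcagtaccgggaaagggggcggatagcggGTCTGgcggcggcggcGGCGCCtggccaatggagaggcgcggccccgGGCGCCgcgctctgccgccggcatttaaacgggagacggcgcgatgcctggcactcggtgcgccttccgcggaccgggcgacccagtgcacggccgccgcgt
CHRD: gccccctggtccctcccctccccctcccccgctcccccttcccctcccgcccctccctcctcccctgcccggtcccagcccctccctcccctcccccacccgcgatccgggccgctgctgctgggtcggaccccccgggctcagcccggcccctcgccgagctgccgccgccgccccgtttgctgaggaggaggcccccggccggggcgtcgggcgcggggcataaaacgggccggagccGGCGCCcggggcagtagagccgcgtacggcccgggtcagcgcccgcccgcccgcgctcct
GREM1 holds GGCGCC at 2 places and CAGAC, counted on both strands, at 2 places, and CHRD holds GGCGCC at 1 place. All 300 bases of the GREM1 window lie in an exon of AC090877.2, a lincRNA on the opposite strand. All 300 bases of the CHRD window lie inside THPO on the opposite strand, and 0 of them in its exons.

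ENG (endoglin) is a co-receptor of endothelial cells and of early erythroid cells that presents BMP and TGF-beta ligands to the receptor kinases, and it is mutated in hereditary haemorrhagic telangiectasia. The authors' deposited table gave ENG at -2.64, a 6.22-fold lower level in HMRHL siRNA cells than in scramble control cells if the value is log2. It ranked 75 of 515 among the lower symbols and is kept at a minimum of 4-fold on the log2 reading, as are 34.2% of all lower symbols. ENG (ENSG00000106991.13) is on chromosome 9 from 127815012 to 127854756 on the minus strand. Its promoter window (chr9:127854609-127854908, minus strand) is shown because its base composition differs from those of the other members.
ENG: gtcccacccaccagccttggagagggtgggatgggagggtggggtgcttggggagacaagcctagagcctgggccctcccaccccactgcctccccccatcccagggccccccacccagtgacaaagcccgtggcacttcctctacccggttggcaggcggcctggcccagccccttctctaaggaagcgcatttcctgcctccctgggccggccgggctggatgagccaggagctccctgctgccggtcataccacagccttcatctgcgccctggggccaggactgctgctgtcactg
It has 8 CpG dinucleotides, against 30 in TGFB1I1, 36 in CHRD, 40 in LDLRAD4 and 42 in GREM1, and none of the motifs searched occurs in it. The median number of CpG dinucleotides was 22 over all protein-coding symbols with a window and 16 over the listed ones.

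TGFB1I1, also called Hic-5, is a LIM-domain adaptor of focal adhesions, related to paxillin and first described as a gene induced by TGF-beta. The authors' deposited table gave it at -3.30, a 9.87-fold lower level in HMRHL siRNA cells than in scramble control cells if the value is log2. It ranked 30 of 515 among the lower symbols, next to PDGFRB at -3.40 and SKIDA1 at -3.30 in the authors' deposited table. TGFB1I1 (ENSG00000140682.18) is on chromosome 16 from 31471585 to 31477960 on the plus strand. It spans 6376 bases and has 17 annotated transcripts that begin at 16 positions.

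Of a list of 158 genes of TGF-beta superfamily signalling in 8 roles, 11 were in the authors' deposited table, 4 higher and 7 lower. The list was written with earlier results of these data known and contains the 6 modulators. Without them, 5 of 152 genes (3.29%) were in the authors' deposited table, 3 higher and 2 lower, a share near the 3.71% of all annotated protein-coding symbols that were there. Of all annotated protein-coding symbols, 1.13% were higher and 2.57% lower. On the log2 scale the 3 higher values ran from 1.94 to 2.48 and the 2 lower ones were -1.30 and -1.43 in the authors' deposited table. The median size over all listed symbols was 2.05 for higher and 1.71 for lower ones.

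None of 31 ligands, 12 type I and type II receptors or 8 SMAD proteins was in the authors' deposited table, and none of 19 genes for latency, activation and processing. At the share of all protein-coding genes, the 51 ligands, receptors and SMADs together would give 1.89 listed genes, so their absence is not read as a result. A gene that is not listed was not selected by the authors, and no more can be said of its level.

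The listed genes outside the 6 came from 3 roles. Of 24 extracellular antagonists 5 were listed, 1 higher and 4 lower, where the 3.71% share of all protein-coding symbols would give 0.890. As 3 of the 5 are modulators chosen because they are listed, nothing is read from this count. Besides GREM1, LEFTY2 and CHRD, these were FSTL3 at -1.30, a follistatin-like protein that binds activin, and VWC2L at 1.94, a secreted protein with a von Willebrand factor C domain, in the authors' deposited table. FSTL3 lies nearer to 0 than any higher gene and drops out at an equal minimum in both directions, as does TAGLN, which leaves no lower gene among the 5. Of 10 co-receptors and pseudoreceptors, ENG was lower and RGMA, a membrane-anchored BMP co-receptor known for axon guidance, was higher at 2.12 in the authors' deposited table. The 2 co-receptors therefore stood at -2.64 and 2.12 on the log2 scale. Of 25 intracellular modulators only TGFB1I1 and LDLRAD4 were in the authors' deposited table, with the lowest and the highest value of the 6. The 3.71% share would give 0.371 listed genes among the 10 co-receptors and pseudoreceptors and 0.927 among the 25 intracellular modulators. As ENG, TGFB1I1 and LDLRAD4 were chosen because they are listed, nothing is read from these counts. PMEPA1, a relative of LDLRAD4 that also binds SMADs, was not listed.

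Of 29 genes known to be induced by TGF-beta or BMP in other cells, 2 were in the authors' deposited table, with opposite signs. The share of all protein-coding symbols would give 1.07. TGFB1I1 at -3.30, first described as a gene induced by TGF-beta, was placed with the intracellular modulators and is not in this count. TGFBI, a secreted matrix protein named for its induction by TGF-beta, was at 2.48 (5.56-fold higher in HMRHL siRNA cells than in scramble control cells if the value is log2). TAGLN, an actin-binding protein of smooth muscle, was at -1.43 (2.70-fold lower) in the authors' deposited table. ID1 and SMAD7, which are also on the lists, were not in the table.

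**Figure D2:**
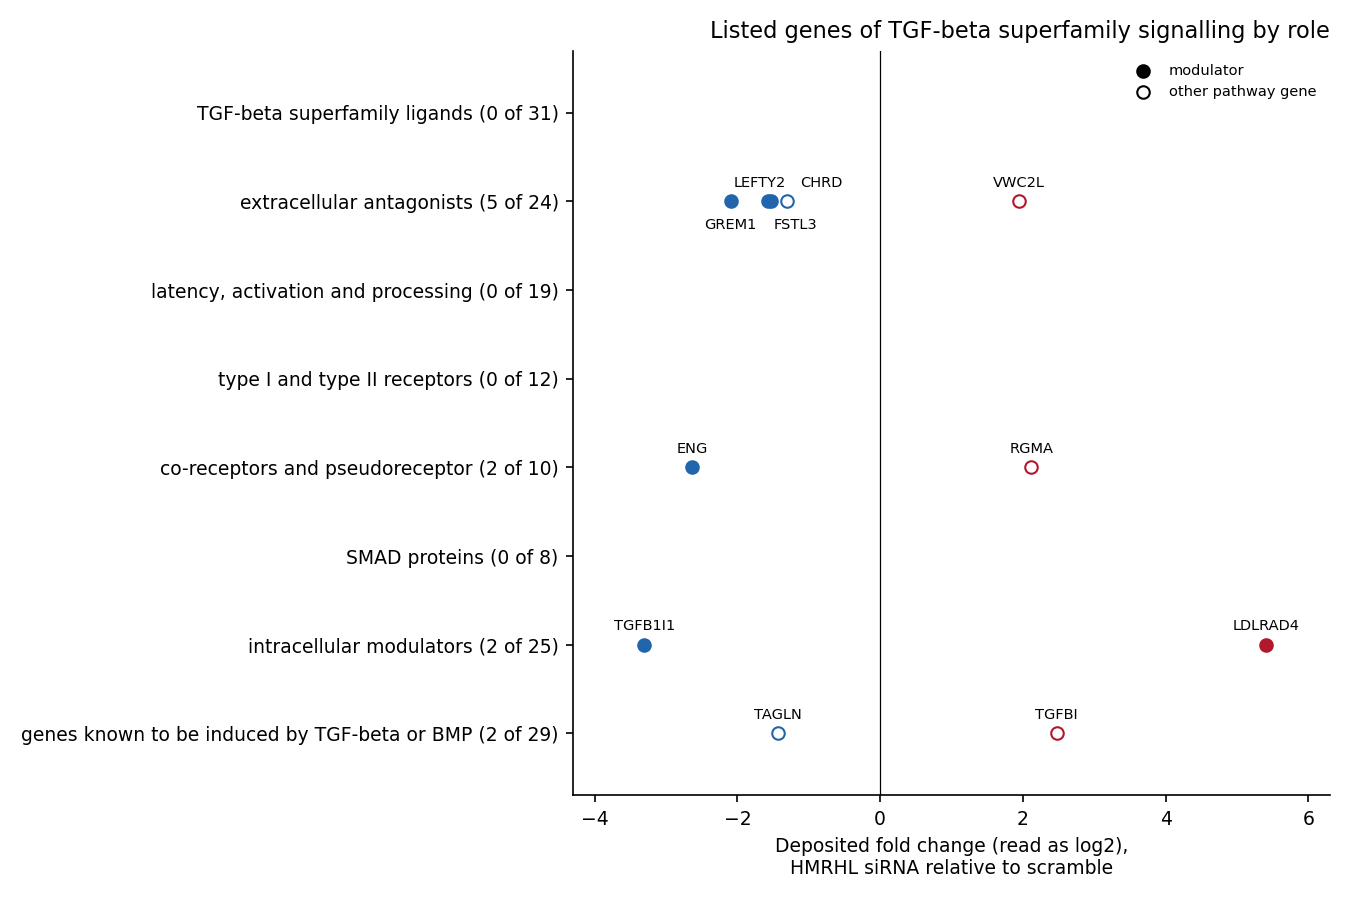
Deposited fold change (read as log2, HMRHL siRNA relative to scramble control) of the listed genes in each role of TGF-beta superfamily signalling, with the number listed of the number annotated beside each role. Filled points are the 6 modulators and open points the other 5 listed pathway genes, and no ligand, receptor or SMAD has a point.

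Within 1 Mb of the 6 modulators lie 179 other annotated protein-coding genes, of which 6 (3.35%) were in the authors' deposited table, again near the 3.71% of all. Both listed neighbours of CHRD were lower like CHRD itself, as were 69.4% of all symbols in the authors' deposited table. Nothing is read from the directions of so few neighbours. THPO, which encodes thrombopoietin, the growth factor of megakaryocytes, was at -1.23 (2.34-fold lower in HMRHL siRNA cells than in scramble control cells if the value is log2) in the authors' deposited table. It lies on the minus strand of chromosome 3, from 184371935 to 184381968, and overlaps CHRD over 1896 bases, with 361 bases of shared exon. VWA5B2, 138 kb away, was at -2.75 in the authors' deposited table. The kit marks strand, but no source used here says whether the counting did, so reads from the shared exons of CHRD and THPO may have counted for either gene. Their part in these values was not tested.

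The listed neighbours of TGFB1I1 had the opposite sign to it and were higher, as were 30.6% of all symbols in the authors' deposited table. SLC5A2, the sodium-glucose cotransporter of the kidney tubule, starts 5 kb beyond the end of TGFB1I1 on the same strand (chromosome 16 from 31483002 to 31490860) with no protein-coding gene between them. It was at 1.53 in the authors' deposited table, where TGFB1I1 was at -3.30. PRSS36, a serine protease gene 321 kb away, was at 1.78 there. Near GREM1, the calcium release channel gene RYR3 was at -1.81, 566 kb away, in the authors' deposited table. Neither LEFTY2, with 19 protein-coding genes within 1 Mb, nor LDLRAD4 had a listed neighbour.

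**Figure D3:**
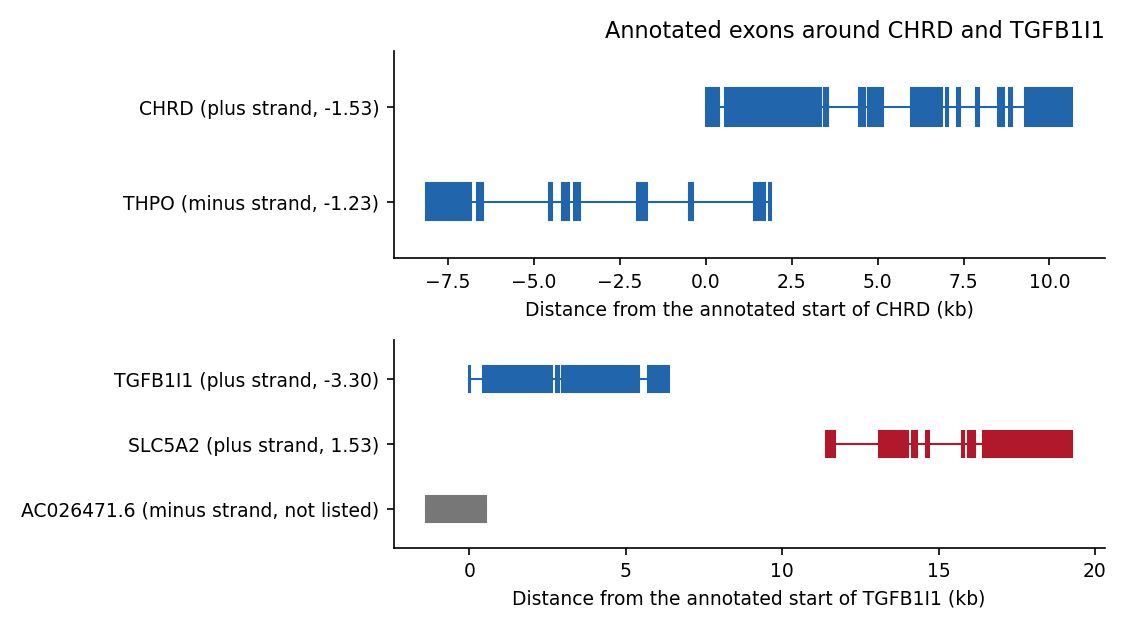
Annotated exons (blocks, all transcripts of a gene merged, GENCODE release 29) around CHRD and TGFB1I1. The horizontal axis gives the distance in kb from the annotated start of each. The deposited fold change (read as log2, HMRHL siRNA relative to scramble control) stands beside each listed name. THPO at -1.23 overlaps the 5′ end of CHRD on the other strand, and SLC5A2 at 1.53 follows TGFB1I1 at -3.30 without overlap.

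All 6 modulators have exons that overlap an exon of another annotated gene, against 40.8% of listed and 44.4% of all protein-coding genes. For LDLRAD4, GREM1, CHRD, ENG and TGFB1I1 the other gene is on the opposite strand, which holds for 37.4% of listed and 33.8% of all protein-coding genes. The exonic length of the modulators ran from 2392 bases (LEFTY2) to 16759 (LDLRAD4), against a median of 4214 over all protein-coding genes. The shares were not matched for exonic length or number of transcripts, and nothing is read from a count over 6 genes. The overlaps are short. They cover 7.95% of the exonic bases of ENG (with AL162586.1), 5.45% of CHRD (with THPO), 2.18% of TGFB1I1, 1.35% of LDLRAD4 and 1.29% of GREM1. LEFTY2 overlaps AL117348.1 on its own strand over 7.32% of its exonic bases.

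LEFTY2 shares more sequence in the same orientation with other genes than the other 5 modulators do. Of the stretches of 50 bases in its longest coding transcript, 26.1% also occur in the same orientation in a transcript of another gene, 22.0% in LEFTY1, a Nodal antagonist gene 25 kb away. Of stretches of 100 bases, 15.6% do. The longest coding transcripts of LEFTY2 and LEFTY1 align over 1202 bases at 96.3% identity. LEFTY1 was not in the authors' deposited table. No source used here gives the read length or the treatment of reads with several matches, so the value of LEFTY2 is uncertain to that extent. In the other members, stretches of 50 bases shared in the same orientation made up at most 0.0275% (GREM1) and those shared in the opposite orientation at most 7.54% (ENG).

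**Figure D4:**
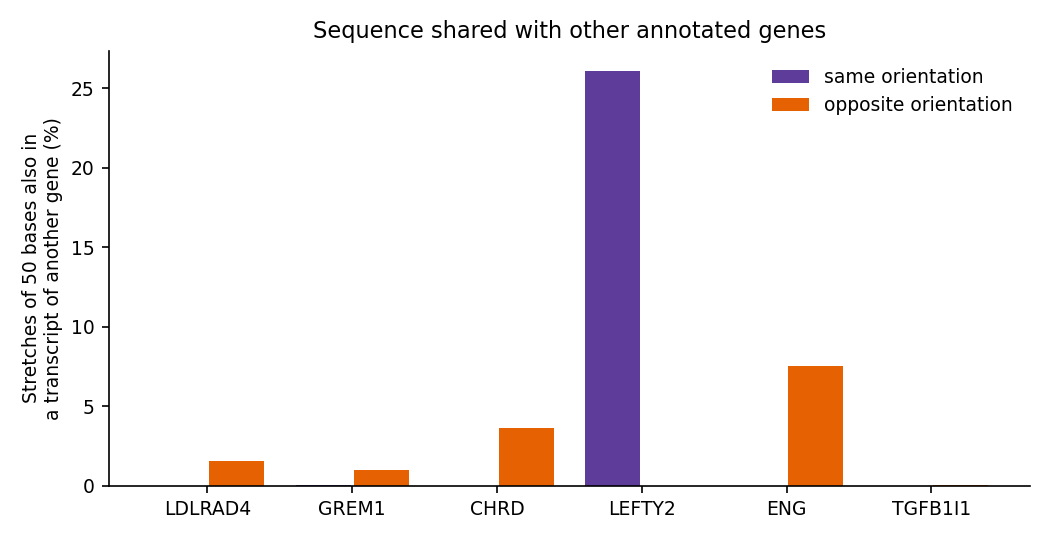
Percentage of all stretches of 50 bases in the longest coding transcript of each modulator that also occur in an annotated transcript of another gene, in the same or the opposite orientation. LEFTY2 stands at 26.1% in the same orientation, and ENG, at 7.54%, has the tallest bar for the opposite one.

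In the promoter windows of the 5 members that have one, the G+C content was 81.3% for CHRD, 79.0% for LDLRAD4, 77.3% for TGFB1I1, 77.0% for GREM1 and 68.3% for ENG. The median over 15843 protein-coding symbols with a window was 62.7%, and over the 542 listed symbols with a window it was 62.0%. The windows of CHRD, LDLRAD4, TGFB1I1 and GREM1 had a higher G+C content than 91.6% or more of all windows, and that of ENG than 68.9%. The higher LDLRAD4 lies among the lower CHRD, TGFB1I1 and GREM1 in this order of G+C content.

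The motifs were searched on both strands in 1 window per gene, the most upstream. CAGAC was found in 2 of the 5 windows (LDLRAD4 and GREM1), 45.9% of those of listed symbols and 44.3% of all. GGCGCC was found in 2 of the 5 (GREM1 and CHRD), 22.7% of those of listed symbols and 25.1% of all. This motif holds only G and C, and the G+C content was 77.0% for GREM1 and 81.3% for CHRD, against a median of 62.7%. The shares of listed and of all windows were not matched for G+C content, so nothing is read from these matches. The AP-1 motif TGAGTCA was in 0 of the 5 and 3.62% of all windows, and the GATA motif AGATAA in 0 of the 5 and 7.66% of all. A match describes the letters and is no evidence of binding.

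**Figure D5:**
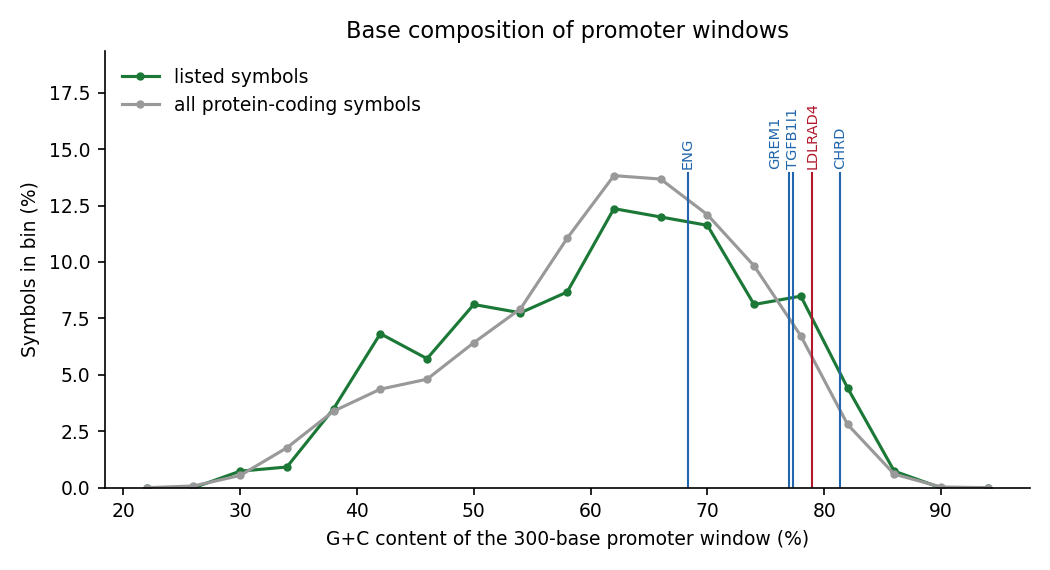
Distribution of the G+C content of 300-base promoter windows for listed and for all protein-coding symbols (percentage of symbols per bin), with vertical lines at the 5 modulators that have a window. CHRD, LDLRAD4, TGFB1I1 and GREM1 lie at 77.0% or above, and ENG at 68.3%.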

How the data were processed

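RNA of K562 cells was sequenced in 4 libraries, made with a stranded kit per the labels' protocols. The submitters' processing notes name Cuffdiff, Cufflinks, TopHat, Bowtie2, SAMtools 1.3.1 and Trim Galore 0.4.4, with the builds GRCh38 and hg38. Their order, settings and the selection threshold are not given in the sources used here. The authors deposited 1 table of 831 rows (742 symbols, 37 of them in several identical rows) with a fold change that was read as log2, because both signs occur and values have up to 6 significant digits, as Cuffdiff prints. A signed linear fold change cannot be told apart from log2, since no value lies near 0. With 1 selected value per gene and no values per library, no test, error or depth could be computed, and the design's tests for such values were not used.

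Each symbol was counted once. Symbols were matched to GENCODE release 29 (GRCh38), where 739 are among 19936 protein-coding symbols. Overlaps of exons, genes within 1 Mb, and exact stretches of 50 and 100 bases shared with other genes' transcripts were computed from it. The LEFTY transcripts were aligned with BLAST 2.17.0. Promoter windows are from RefSeq (GRCh38.p14), in which 5 of the 6 members had an entry. LEFTY2 is named only. The planned description of protein sequences was not run. Functions for motifs and shared stretches were checked on simulated sequences. Python 3.11.15, numpy 2.4.6, pandas 2.3.3 and matplotlib 3.10.9 were used.

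The members, the 8 lists of pathway genes and the alternatives were chosen with earlier results of these data known. Named are the members, every listed pathway gene, every listed gene within 1 Mb of a member, some of those ranked next to a member, and the values nearest to 0. Some genes that this rule selects are not reported here. A few pathway genes that were not listed and gene relatives were named in addition, after the values were seen. Alternatives were a minimum of 4-fold, an equal minimum in both directions, rows in place of symbols, a linear reading, other or translated pathway symbols, and leaving out members that share sequence or exons with other genes.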

Additional observations from a re-analysis of the deposited data

How the results depend on the processing

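The single higher modulator remained 1 in all 5 alternatives that left any modulator. This was fixed in advance and is no sign of stability. LDLRAD4 at 5.40 passes 4-fold on either reading and fills 1 row, and LEFTY2 is a lower gene. The equal minimum was the smallest positive value, 1.50, so it could remove no higher gene. The count of 5 lower modulators was 3 at a minimum of 4-fold (GREM1, ENG and TGFB1I1), and 0 at 4-fold when values were read as linear, because none of the 5 has a deposited size of 4. It was 5 at an equal minimum in both directions, 6 when rows were counted and 4 without LEFTY2. Leaving out members with exons that overlap another gene, or with stretches of 50 bases shared with one, left no modulator and gave no value; the alternative on shared stretches was added after seeing the data. Read as linear, the 6 values would correspond on the log2 scale to 2.43 for LDLRAD4, -1.72 for TGFB1I1, -1.40 for ENG, -1.07 for GREM1, -0.65 for LEFTY2 and -0.61 for CHRD. Of the 7 lower pathway genes, 3 were left at 4-fold, 2 (FSTL3 and TAGLN) without the 6 modulators, and 5 at an equal minimum, which removes FSTL3 and TAGLN and so keeps the 5 lower modulators only. The 4 higher ones gave 3 to 4 in all 5 alternatives run, of which the equal minimum could remove none of them. No paired analysis was possible because the table holds 1 value per gene and none per library. For the same reason, leaving out replicates, pseudocounts and filters on low values were not run, and no depth limit can be given.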

Other observations

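Of the 4 annotated protein-coding genes named LDLRAD, for a low-density lipoprotein receptor class A domain, 3 were in the authors' deposited table, against 3.71% of all annotated protein-coding symbols. LDLRAD4 is 1 of the 3 and was chosen because it is listed. Beside LDLRAD4 at 5.40, it gave LDLRAD2 at -2.53 and LDLRAD3 at -1.52 on the log2 scale, and LDLRAD1 was not listed. These genes share a name and a domain and not a role in TGF-beta signalling, and they were looked up after their values were seen. Of some relatives of the other members, CHRDL1, CHRDL2, LEFTY1, PXN and LPXN were not listed.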
